A study of Schmidtea polychroa with 24 samples.

Results

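The genes described here are the 60 most abundant genes in cocoons of the freshwater planarian Schmidtea polychroa, out of 22365 assembled genes, over the first week after the cocoon is laid. They were chosen by level: the authors' normalised values of all isoforms were summed per assembler gene, and the 60 genes with the highest mean over all 24 libraries were taken. Libraries came from cocoons of a sexual laboratory strain kept at 20 °C and taken 4, 24, 32, 48, 72, 96, 120 or 168 h after deposition, with no treatment or genetic change in any group, and all times below count from deposition. Each time point had 3 biological replicates, and each replicate pooled 4 whole cocoons, so capsule contents of several embryos and their yolk were read together. Stranded libraries of polyadenylated RNA ranged from 1599902 to 9567933 estimated counts in depth (median 3304781). The files pair no ID with a gene name, so each gene is called by its rank (gene 1 has the highest mean level), no role is given to any of them, and no marker of embryo or yolk could be looked up.

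Planarian eggs carry little yolk of their own. They are packed into a capsule with a large number of maternally made yolk cells, and the early embryo builds a temporary pharynx with which it swallows these cells before the definitive body forms. RNA from a whole cocoon is therefore a mixture of maternal yolk-cell RNA and embryonic RNA, in which fewer cells of a type and less RNA per cell cannot be told apart.

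Membership does not mean abundance throughout. Only genes 1, 3 and 10 were among the 60 highest at all 8 times, and gene 57 was among them at 1 time. At each time in turn, 43, 50, 48, 49, 44, 25, 27 and 17 of the members were also among the 60 highest genes of that time, from 4 h to 168 h. The rank 57 to 60 genes had mean normalised levels of 723.75, 722.96, 717.35 and 713.9, and the next genes in order, which were not included, had 712.85, 711.61, 706.9 and 682.4. By mean CPM (a gene's counts scaled to a fixed total per library), which does not correct for transcript length, 44 of the 60 would have been chosen as well, and by the median normalised level 52. The normalised value was read as counts per length. No transcript lengths were given, so relative lengths were inferred from the ratio of counts to normalised values, where counts exceeded 50. By this measure, the main isoforms of 43 members were at or below the 25th percentile of all transcripts with such a value. The median over the main isoforms of all 60 members was 0.589 of the median transcript, with a range from 0.496 to 1.429. The shortest of all these transcripts stood at 0.493. A ranking on counts per length favours short transcripts, so the short main isoforms of the members can follow from the choice itself.

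Replicates spread unequally, and some libraries stood apart from their time. In 120h replicate 1, the log2(CPM + 1) of the 60 genes lay on average 0.34 from the 72 h mean and 1.66 from the mean of the other 120 h libraries. In 48h replicate 2, the average distance was 0.46 from the 72 h mean and 1.06 from the other 48 h libraries. Genes 2 and 4 were also far higher in 72h replicate 3 and 96h replicate 1 than in the other libraries of those times. The origin of these differences was not tested. The typical SD between replicates of a time was 0.70 on the log2 scale for the members (median) and 0.84 over all 15587 genes tested.

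The 60 genes held about 33% of all counts at the start, close to 65% on day 3 and about 24% on day 7. In the 4 h libraries their share was 33.4%, 32.0% and 34.8%, in the 72 h libraries 62.4%, 62.0% and 71.8%, and in the 168 h libraries 28.9%, 19.8% and 24.5%. The libraries of these 3 times did not overlap. Means were 33.4% ± 1.41 after 4 h, 42.9% ± 4.05 after 24 h, 55.8% ± 7.34 after 32 h, 54.6% ± 1.12 after 48 h, 65.4% ± 5.56 after 72 h, 46.6% ± 7.80 after 96 h, 44.99% ± 21.6 after 120 h and 24.4% ± 4.58 after 168 h (± SD, n = 3 per time). At 120 h the share was 70.0% in replicate 1 but 33.3% and 31.7% in the others. These shares are descriptions with no test, because the genes were chosen by their level in the same libraries.

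**Figure D1:**
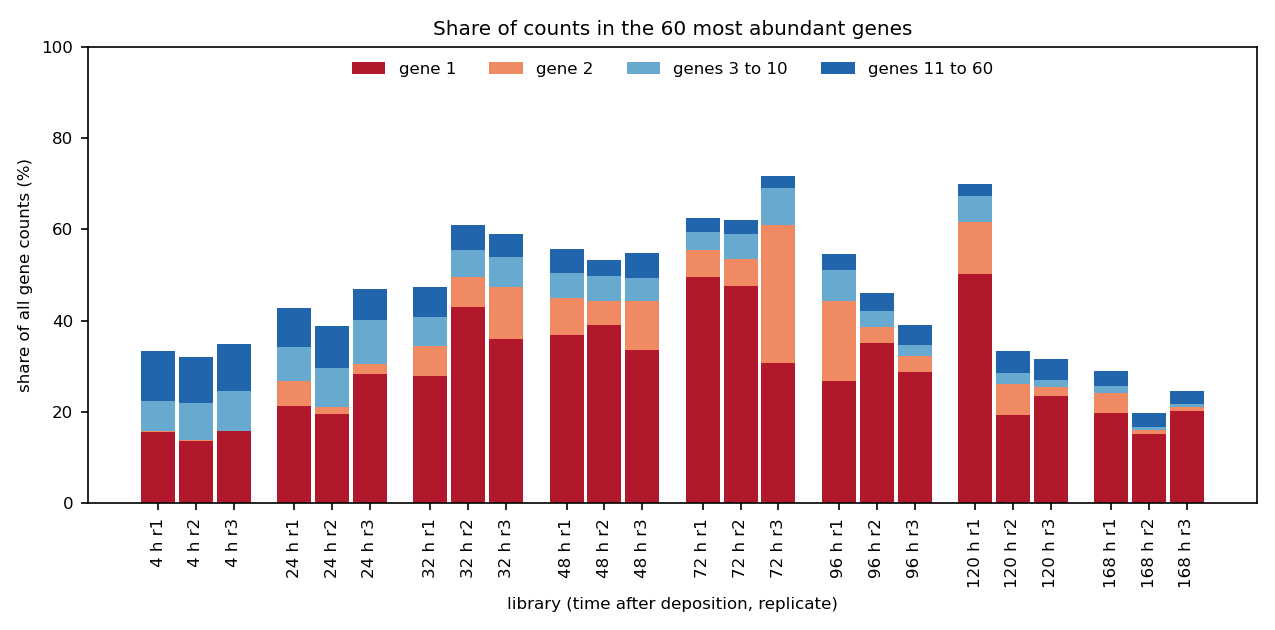
Share of all gene counts (%, y axis) held by gene 1, gene 2, genes 3 to 10 and genes 11 to 60 in each of the 24 libraries (x axis, time after deposition and replicate). The bars reach 62.0% to 71.8% after 72 h and 19.8% to 28.9% after 168 h, and 120h replicate 1 stands at 70.0% beside 33.3% and 31.7%.

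The rise to 72 h lay in genes 1 and 2, as did most of the later fall. Together they held 15.1% ± 1.12 of counts after 4 h, 56.7% ± 3.84 after 72 h and 20.5% ± 4.11 after 168 h (± SD, n = 3 per time). Genes 3 to 60 fell from 18.3% ± 0.685 of all counts after 4 h to 8.75% ± 1.96 after 72 h and 3.89% ± 0.685 after 168 h. Of the counts outside genes 1 and 2, genes 3 to 60 held 21.5% ± 0.905 after 4 h, 22.7% ± 0.911 after 24 h, 21.5% ± 1.62 after 32 h, 18.2% ± 1.51 after 48 h and 20.5% ± 6.43 after 72 h. Their share then stood at 13.5% ± 4.44 after 96 h, 13.2% ± 7.34 after 120 h and 4.92% ± 1.07 after 168 h (± SD, n = 3 per time). At 72 h this share ran from 15.7% to 27.8%, and gene 4 alone held from 3.69% to 15.8% of the same counts.

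Gene 1 was the most abundant gene, per length, in every one of the 24 libraries. It held 15.6%, 13.7% and 15.7% of counts after 4 h, and 21.3%, 19.5% and 28.3% after 24 h. At 32 h it held 27.8%, 43.1% and 36.1%, after 48 h 36.8%, 39.0% and 33.7%, and after 72 h 49.7%, 47.5% and 30.7%. It stood at 26.7%, 35.1% and 28.7% after 96 h, at 50.2%, 19.3% and 23.6% after 120 h, and at 19.8%, 15.3% and 20.2% after 168 h. Each library from 24 h to 120 h lay above the 4 h libraries, while 4 h and 168 h overlapped. Whether this was called a change depended on the test. With edgeR's quasi-likelihood test, gene 1 was the 1 member of 60 not called over all times together (adjusted p = 0.398, beside 63.9% of all tested genes called), and its log2 fold change of 2.05 at 72 h against 4 h had a standard error of 1.07 and an adjusted p of 0.214. With DESeq2 the same contrast gave 2.27 (adjusted p = 7.74e-07) and with limma-voom 2.06 (adjusted p = 0.00112). It was not called with limma-trend on the normalised values (1.87, adjusted p = 0.852). Nor was it called in edgeR with DESeq2's size factors (2.27, adjusted p = 0.133) or with only the libraries compared (1.93, adjusted p = 0.259). Without 120h replicate 1, edgeR called all 60 members over all times, and gene 1 at 72 h against 4 h with the same log2 fold change (adjusted p = 0.0414). The share of all tested genes called without that library is not given here. Fold changes here and below are on the log2 scale after scaling by the trimmed mean of M values (TMM), and p-values are Benjamini-Hochberg adjusted over all 15587 genes tested, with a call at an adjusted p under 0.05.

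Gene 2 went from a minor transcript after 4 h to second place. It held 0.114%, 0.104% and 0.0978% of counts after 4 h, 5.42%, 1.68% and 2.28% after 24 h, and 6.73%, 6.42% and 11.3% after 32 h. At 48 h it held 8.23%, 5.25% and 10.7%, after 72 h 5.78%, 6.07% and 30.2%, and after 96 h 17.7%, 3.47% and 3.64%. It stood at 11.4%, 6.97% and 1.85% after 120 h and at 4.47%, 0.840% and 0.926% after 168 h. All later libraries lay above all 4 h libraries. Its log2 fold change against 4 h was 7.77 after 72 h (standard error 1.40, edgeR adjusted p = 0.00127), or 6.27 without 72h replicate 3 (edgeR adjusted p = 0.00352), and 3.86 after 168 h (standard error 1.17, edgeR adjusted p = 0.00975). Without 168h replicate 1, the last value was 2.57 and was no longer called. The log2 fold change of gene 2 between 72 h and 168 h was -3.91 (edgeR, adjusted p = 0.0127). That call was lost without 72h replicate 3 (-2.41), 168h replicate 2 (-3.38) or 168h replicate 3 (-3.42), and without 168h replicate 1 the value was -5.06.

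Gene 4 moved with a like course at a lower level. Its CPM were 354, 534 and 491 after 4 h, 18410.0, 4742 and 16335 after 24 h, 12533, 28600.0 and 17897 after 32 h, and 12687, 19891 and 18325 after 48 h. They were 16441, 23427 and 61556 after 72 h, 50827, 10636 and 7597 after 96 h, 31622, 7677 and 5751 after 120 h, and 5267, 1747 and 2364 after 168 h. The 4 h libraries were the lowest of all, and the highest values were those of 72h replicate 3 and 96h replicate 1, the libraries in which gene 2 was highest as well. It was the only member called at 24 h against 4 h, with a log2 fold change of 4.95 (standard error 1.06, edgeR adjusted p = 0.0229), and it was called up at every later time. The 24 h call was lost without 4h replicate 1, 2 or 3 or 24h replicate 1 or 3, with values from 4.60 to 5.03. The rise was 6.89 after 72 h (standard error 1.16, edgeR adjusted p = 0.000737), or 5.91 without 72h replicate 3 (edgeR adjusted p = 0.00248), and 2.32 after 168 h (standard error 0.941, edgeR adjusted p = 0.0419). The 168 h call was lost without 4h replicate 1, 2 or 3 or 168h replicate 1 or 3, with values from 1.69 to 2.50. Per length, gene 2 stood at 1.23 to 7.96 times gene 4 over the 24 libraries (median 3.10). The time means of CPM spanned 133-fold for gene 2 and 73.6-fold for gene 4, with the highest mean in the 72 h libraries. Without 72h replicate 3 they spanned 78.4-fold and 50.1-fold, and the 96 h mean was the highest for both genes.

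Gene 8 rose more slowly. Its CPM were 182, 129.7 and 119.8 after 4 h, 1047, 360.4 and 1322 after 24 h, 623, 978 and 1372 after 32 h, and 839.7, 3726 and 1296 after 48 h. They were 2831, 7709.6 and 3494 after 72 h, 3945, 7944 and 2836 after 96 h, 5199.5, 2203 and 2458 after 120 h, and 1664, 1775 and 229 after 168 h. Every later library was above the 4 h libraries, and the 168 h libraries were all below those of 72 h. Gene 8 was up by 5.58 after 72 h (edgeR, adjusted p = 0.000593) and by 2.58 after 168 h (edgeR, adjusted p = 0.0104), and it fell by 3.00 between 72 h and 168 h (edgeR, adjusted p = 0.00686). Without 168h replicate 3 this last log2 fold change was -2.39 and still called. Genes 2, 4 and 8 were the members called up at 72 h against 4 h and down at 168 h against 72 h. For gene 4 the second of these was -4.58 (edgeR, adjusted p = 0.00245), or -3.59 without 72h replicate 3. Those contrasts share the 72 h libraries.

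**Figure D2:**
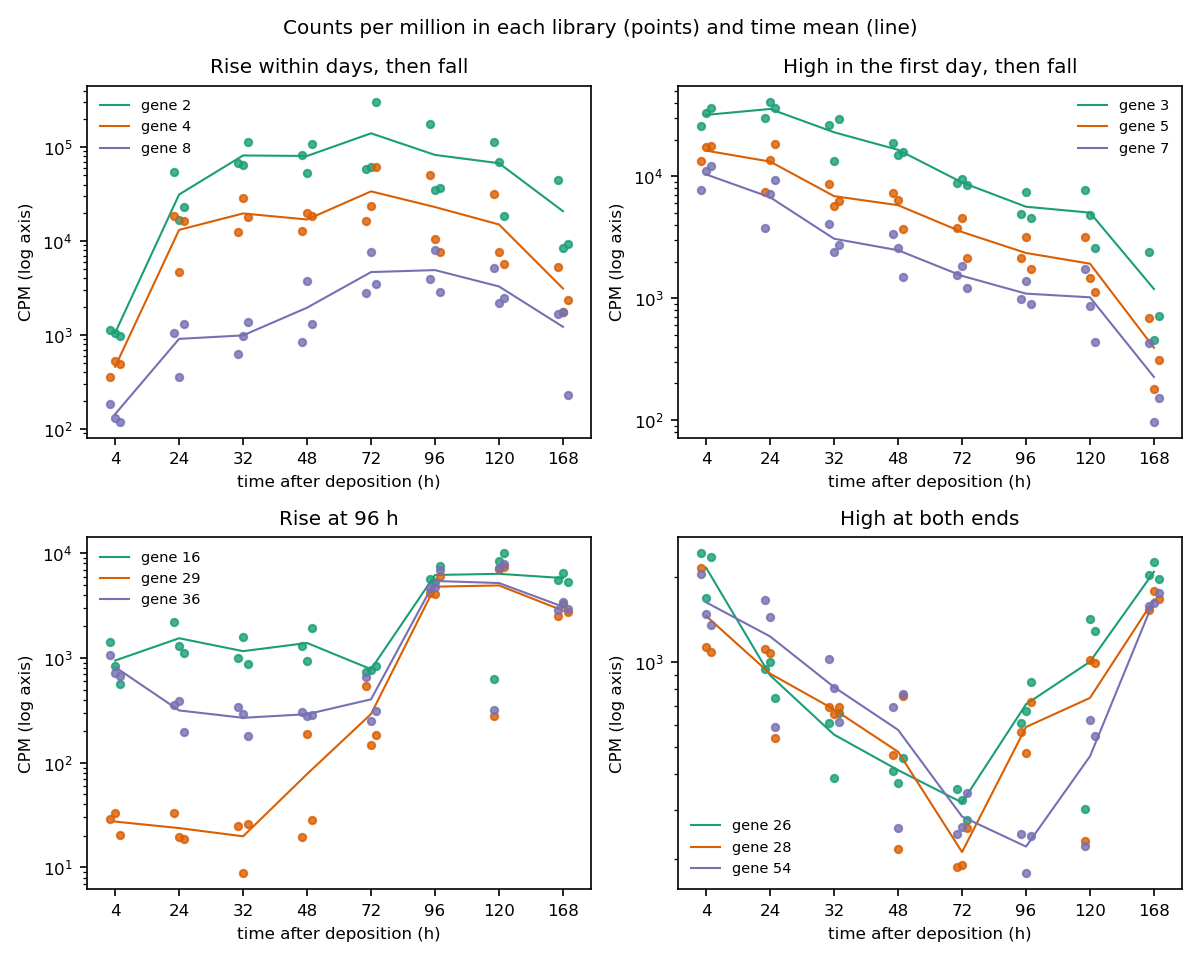
CPM on a log axis (y) against time after deposition (x) for 12 genes in 4 panels, with a point for each library and a line through the time means (n = 3). Genes 2, 4 and 8 are above their 4 h level in every later library, genes 3, 5 and 7 are below it from 48 h on, and genes 16, 29 and 36 are high from 96 h except in 120h replicate 1. Genes 26, 28 and 54 are lower after 72 h than after 4 h and 168 h.

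Most members started high and were lost. By their highest time mean of CPM, 27 members peaked in the 4 h libraries, 19 in those of 24 h to 48 h (18 of them in those of 24 h), 3 in those of 72 h (genes 1, 2 and 4), 6 in those of 96 h or 120 h and 5 in those of 168 h. For 41 members the 168 h mean was the lowest. At 168 h against 4 h, 45 of the 60 fell and 9 rose (edgeR), beside 25.5% of all tested genes down and 31.9% up. The log2 fold changes of these 45 ran from -5.97 to -0.78, with a median of -4.54. The median log2 fold change of all 60 was -3.96, and that of all tested genes was 0.57. Scaled by DESeq2's size factors, these medians were -3.75 and 0.79, and no called member changed direction. The mean behind the choice of members covered 24 libraries, 3 of them from 168 h, which favours genes high at earlier times. Among the 60 highest genes of the time were 43 members after 4 h and 17 after 168 h. More falls than over all tested genes, here and in the contrasts below, can therefore follow from the choice itself. The 45 genes together held 17.3% ± 0.865 of counts after 4 h, 4.48% ± 0.487 after 72 h and 1.08% ± 0.576 after 168 h (± SD, n = 3 per time).

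Genes 3 and 5 lie in the same component of the assembly, so reads may be shared between them if their sequences are alike. Gene 3 was at 26115, 33426 and 36413 CPM after 4 h, 30154, 40828 and 36352 after 24 h, 26394, 13256 and 29424 after 32 h, and 18881, 14955 and 15737 after 48 h. It was at 8837, 9464 and 8445 CPM after 72 h, 4935, 7431 and 4544 after 96 h, 7727, 4815 and 2574 after 120 h, and 2395, 457 and 717 after 168 h. From 48 h on, all libraries lay below the 4 h libraries. The fall was called from 96 h, and the log2 fold change was -5.19 after 168 h (standard error 0.757, edgeR adjusted p = 2.59e-05).

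Gene 5 (TRINITY_DN243583_c1_g1), a gene with 1 isoform, had the second largest fall. Its CPM were 13400.0, 17576 and 17844 after 4 h, 7485, 13640.0 and 18576 after 24 h, 8628, 5748 and 6273 after 32 h, and 7329, 6349 and 3726 after 48 h. They were 3801, 4540.3 and 2141 after 72 h, 2133, 3192 and 1728 after 96 h, 3175, 1466 and 1118 after 120 h, and 682, 180.0 and 314 after 168 h. The 168 h libraries were the 3 lowest. Its log2 fold change from 4 h to 168 h was -5.83 (standard error 0.715, edgeR adjusted p = 5.40e-06). Per length, gene 3 stood at 1.63 to 4.05 times gene 5 in the 24 libraries, with a median of 2.06.

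Gene 7 (TRINITY_DN236819_c0_g1), also with 1 isoform, fell most. It was at 7760.2, 11168 and 12203 CPM after 4 h, 3762, 7159.8 and 9294 after 24 h, 4094, 2382 and 2756 after 32 h, and 3344, 2599 and 1484 after 48 h. It was at 1538, 1830.5 and 1205 CPM after 72 h, 988, 1386 and 896 after 96 h, 1746, 869.5 and 435 after 120 h, and 426, 97.0 and 153 after 168 h. The 4 h and 24 h libraries overlapped, and the 168 h libraries lay below all others. Gene 7 had a log2 fold change against 4 h of -2.20 after 72 h (edgeR, adjusted p = 0.0276) and of -5.97 after 168 h (standard error 0.743, edgeR adjusted p = 5.86e-06). The 72 h call was lost without 4h replicate 2 or 3 or any 1 of the 72 h replicates, with values from -2.30 to -2.04. Without 168h replicate 1, the 168 h log2 fold changes of genes 3, 5, 6, 7, 9, 20, 21 and 31 were -6.24, -6.51, -5.01, -6.85, -5.63, -6.42, -6.65 and -6.35, and all were still called.

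With all libraries, the calls of genes 6, 9 and 10 against 4 h differed in timing. Gene 6 ranged from 4601 to 6407 CPM after 4 h and from 4669 to 7729 after 24 h, was still at 2271 to 3671 after 72 h, and stood at 211 to 799 after 168 h. Its fall was called in the 168 h contrast, with a log2 fold change of -4.16 (edgeR, adjusted p = 4.65e-05), but with all libraries at no earlier time against 4 h. Without 120h replicate 1 gene 6 was also called down at 96 h (-1.35, edgeR adjusted p = 0.0126) and at 120 h (-2.41, edgeR adjusted p = 0.000606). Gene 9 ranged from 9497 to 11210.0 CPM after 4 h, from 2318 to 2689 after 72 h and from 239.7 to 1132 after 168 h, with a log2 fold change of -4.62 between the first and the last of these times (edgeR, adjusted p = 5.40e-05).

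Gene 10 fell early, and its later course was not level. Its CPM were 3793, 4046 and 4045 after 4 h, 601, 625 and 546 after 72 h, and 1453, 1187 and 1178 after 168 h. The log2 fold change against 4 h was -2.17 after 72 h (edgeR, adjusted p = 0.00155) and -2.13 after 168 h (edgeR, adjusted p = 0.000286), while that of 168 h against 72 h was 0.04 (standard error 0.383, edgeR adjusted p = 0.933). As a share of counts it was higher after 168 h than after 72 h in every library, so the log2 fold change near 0 comes after the TMM scaling.

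Among the largest falls were also genes 20, 21 and 31. Gene 21 was at 5201, 5033 and 5111 CPM after 4 h, and at 1434, 1725 and 1288 by 24 h. At 168 h it was at 258, 66.4 and 77.0 CPM. These groups did not overlap, and its log2 fold change from the first day to the last was -5.71 (edgeR, adjusted p = 9.47e-06). Those of genes 20 and 31 were -5.56 and -5.48 (edgeR, adjusted p = 1.07e-05 and 8.08e-06).

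**Figure D3:**
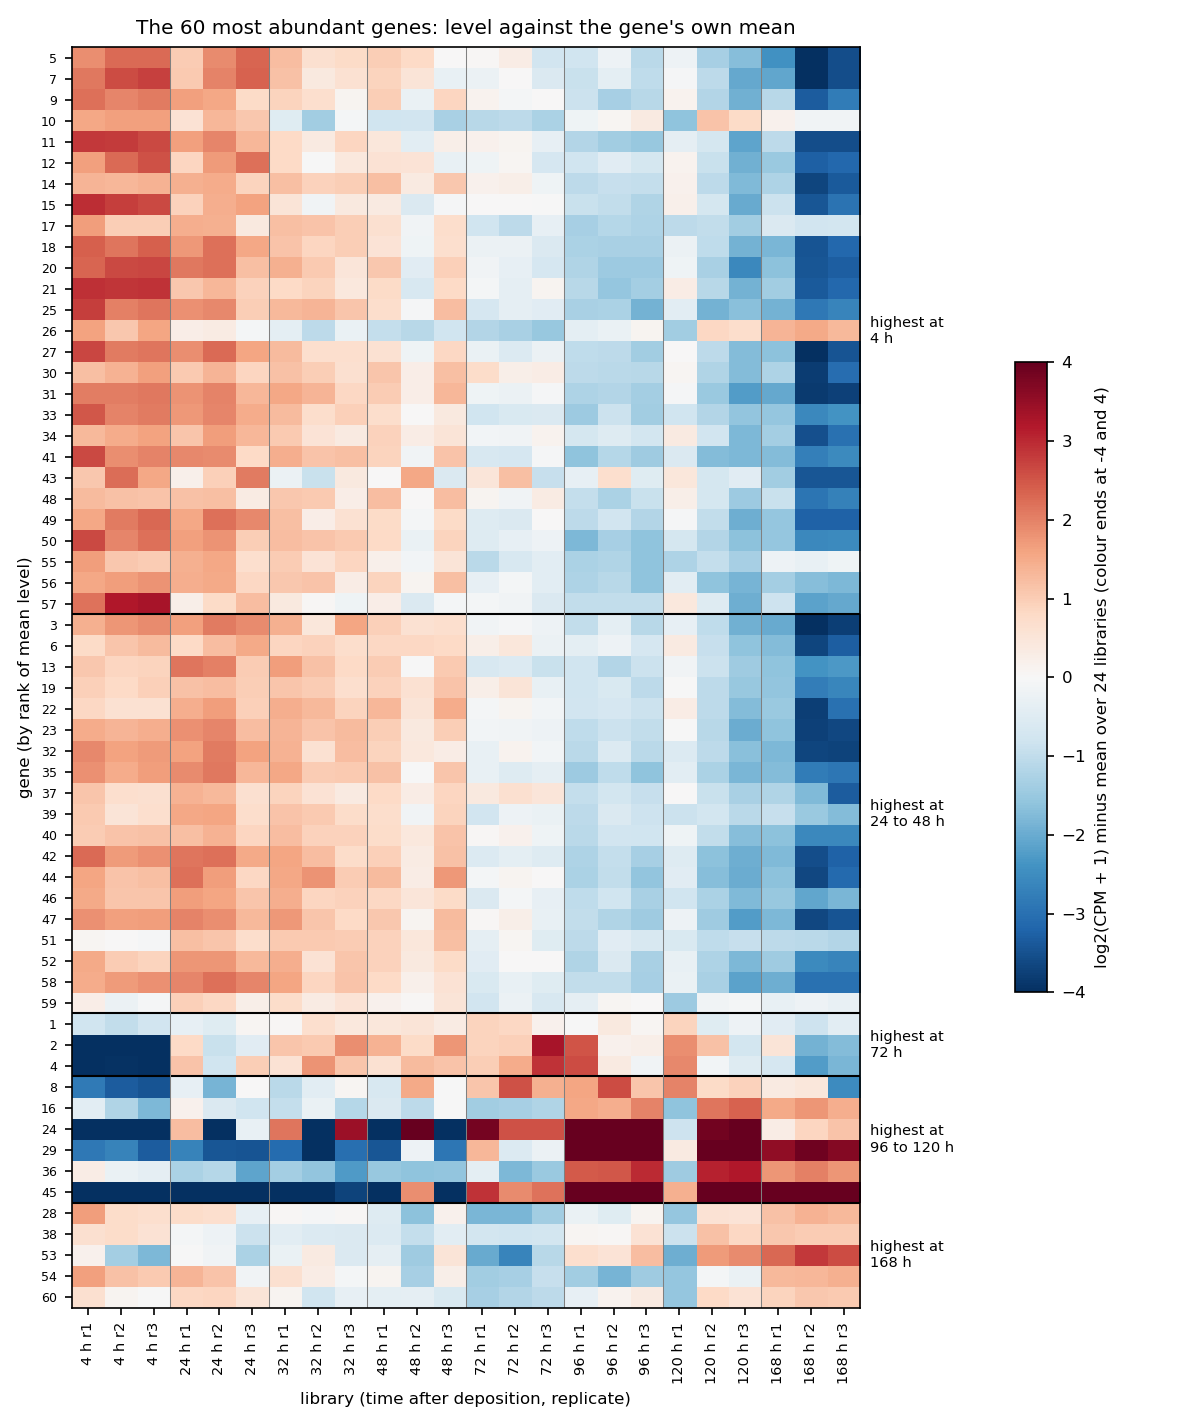
Level of each of the 60 genes (rows, named by rank) in the 24 libraries (columns), as log2(CPM + 1) minus the gene's mean over all libraries, with rows grouped by the time of the highest mean. The 27 genes highest in the 4 h libraries and the 19 highest in those of 24 h to 48 h lie above their own mean (red) in the 24 h group, and apart from gene 26 all lie below it (blue) in the 168 h group, with 41 of all 60 genes lowest in the 168 h libraries. Of the 6 genes highest in the 96 h or 120 h libraries, 4 are above their own mean in the 72 h group and 6 in the 96 h group, and 120h replicate 1 has the colours of the 72 h libraries.

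Few members were called against 4 h in the first days, and most were called from 96 h on. At 24 h, 1 rose and 0 fell (edgeR), beside 0.321% and 0.648% of all tested genes. At an unadjusted p under 0.05 there were 13 members, limma-voom called 3 up and 3 down, and DESeq2 called 6 up and 3 down. With 1 library left out edgeR called 0 without 4h replicate 1 or 3 or 24h replicate 1 or 3, 2 without 48h replicate 2, 72h replicate 3 or 120h replicate 2, 4 without 120h replicate 3 and 8 without 120h replicate 1. Shares of all tested genes are given only for the main fit. Counts under other tests or with a library left out, here and below, therefore do not show whether members changed more than all genes.

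At 32 h, genes 2, 4, 8, 51 and 59 rose and genes 10, 26 and 57 fell, beside 2.03% and 2.18% of all tested genes. The total of 8 was 5 without 4h replicate 2 or 32h replicate 1 or 3, 2 without 4h replicate 3 and 13 without 120h replicate 1. At 48 h, genes 2, 4, 8, 24, 45 and 51 rose and genes 10, 11, 15, 26, 33 and 57 fell, beside 4.56% and 2.96%. That total of 12 was 7 without 4h replicate 1 or 48h replicate 2, 6 without 4h replicate 3 and 21 without 120h replicate 1.

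At 72 h, genes 2, 4, 8, 24, 29 and 45 rose and 21 members fell, beside 5.29% up and 6.1% down among all tested genes. The total of 27 was 16 without 4h replicate 1 or 3 or 72h replicate 2, and 13 without 72h replicate 1. By 96 h, 8 members were up and 43 down, beside 22.3% and 13.7%, and by 120 h 9 were up and 40 down, beside 24.0% and 11.3%. Of the 45 members that fell by 168 h, 18 had already been called down in the 72 h contrast and 40 in the 96 h contrast. These comparisons share the 4 h libraries. Between 72 h and 168 h, 46 members fell and 9 rose, beside 25.1% and 23.7% of all tested genes, and the median log2 fold change was -3.10 over the members and 0.06 over all genes.

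**Figure D4:**
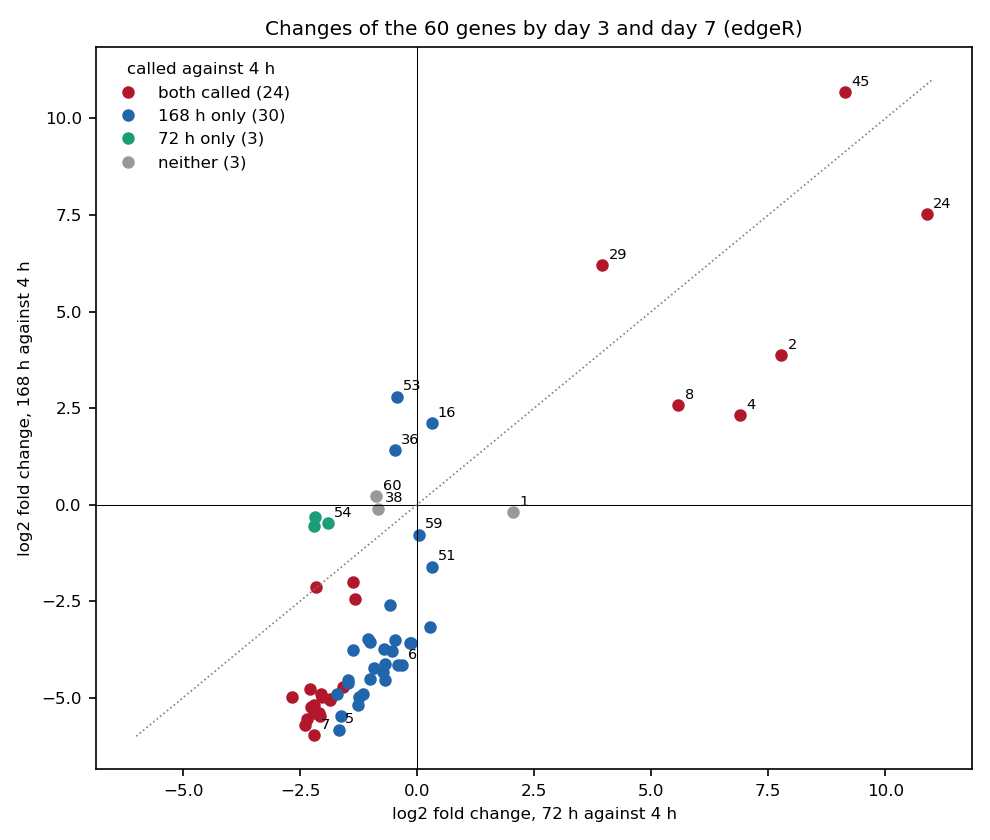
Log2 fold change from 4 h to 168 h (y axis) plotted against that at 72 h against 4 h (x axis) for the 60 genes, coloured by the contrasts in which edgeR called them, with a dotted line where both values are equal and labels giving the rank of some genes. A group of 24 genes was called in both contrasts, 30 in the 168 h contrast alone, 3 in the 72 h contrast alone and 3 in neither. Because both axes share the 4 h libraries, the tilt of the cloud is no result.

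Between neighbouring times, the called changes of the members fell into the step from 72 h to 96 h and the step from 120 h to 168 h. In the first, 3 members rose (genes 16, 29 and 36) and 7 fell (genes 30, 37, 40, 46, 50, 55 and 56), beside 12.4% of all tested genes called in either direction. That total of 10 was 0 without 72h replicate 2, 1 without 96h replicate 3, 2 without 72h replicate 3, 3 without 96h replicate 1, 4 without 96h replicate 2 and 5 without 72h replicate 1. It was 17 without 168h replicate 1, 25 without 120h replicate 3 and 37 without 120h replicate 1.

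In the step from 120 h to 168 h, 41 members fell and gene 54 rose, beside 11.5% of all tested genes. The rise of gene 54, 1.28 on the log2 scale (edgeR, adjusted p = 0.0453), was lost with 10 of the 24 libraries left out singly, 120h replicate 1 (1.12) among them. The total of 42 was 9 without 120h replicate 1 and 0 without 168h replicate 2 or 3. In the steps from 24 h to 32 h, 32 h to 48 h, 48 h to 72 h and 96 h to 120 h, edgeR called 0 members and 0.0% of all tested genes. At an unadjusted p under 0.05 there were 2, 2, 13 and 1 members in these steps, and DESeq2, limma-voom and limma-trend each called 0 members in each of the steps.

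A small set was highest late. Genes 8, 16, 24, 29, 36 and 45 had their highest mean in the 96 h or 120 h libraries. For gene 8 this rested on 1 library: without 72h replicate 3 its 72 h mean (5270 CPM) was above its 96 h mean (4908 CPM). Without gene 8, described above, the summed CPM of the other 5 were 2528, 1596 and 1259.5 after 4 h and 3755, 1949 and 2136 after 72 h. They were 19084, 20569 and 28452 after 96 h, 1402, 28339 and 31222 after 120 h, and 12535, 14634 and 12614 after 168 h. The libraries of 96 h and 168 h all lay above those of 4 h and 72 h, whereas 120h replicate 1 lay with the early libraries. All 5 were called up against 4 h in the contrasts of 96 h, 120 h and 168 h. By the median normalised level, genes 24, 29, 36 and 45 ranked 233, 492, 212 and 339, outside the first 60. Their high late libraries thus helped to bring them among the members. Calls of their late rises, here and below, are therefore descriptions and no independent support. For gene 36 the 168 h log2 fold change was 1.41 (edgeR, adjusted p = 0.0439), a call lost without any 1 of 8 libraries: 4h replicate 2 or 3, 24h replicate 1, 32h replicate 1, 96h replicate 1 or a 168 h replicate.

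Gene 45 (TRINITY_DN240196_c2_g1) rose most. Its CPM were 0.394, 0.769 and 0.502 after 4 h, from 8 counts in all, and 0, 0 and 1.47 after 24 h, 0, 0 and 2.27 after 32 h, and 0.285, 156 and 0 after 48 h. They were 315, 158 and 193 after 72 h, 1644, 1721 and 2442 after 96 h, 115, 3884 and 3484 after 120 h, and 1473, 1207 and 1381 after 168 h. From 72 h on every library lay above those of 4 h, and of the 48 h libraries replicate 2 stood alone. Its fitted log2 fold change from 4 h to 168 h was 10.68 (standard error 1.92, edgeR adjusted p = 0.000180), a size that rests on few counts in the 4 h libraries. At 48 h it was 6.81 (edgeR, adjusted p = 0.0235) with all libraries and -1.13 without 48h replicate 2, and the call was also lost without any 1 of the 4 h replicates.

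Gene 24 (TRINITY_DN242307_c2_g2) was uneven between replicates until 72 h. Its CPM were 0, 1.73 and 0.251 after 4 h, from 10 counts in all, 246, 0 and 84.3 after 24 h, 462, 0 and 1135 after 32 h, and 0, 1776 and 0 after 48 h. They were 1511, 619 and 614 after 72 h, 2930.2, 4593 and 5427 after 96 h, 58.0, 1539.8 and 2390.2 after 120 h, and 129, 189 and 230.5 after 168 h. High libraries stood beside libraries at 0 of the same time, and the SD between replicates, 3.86 on the log2 scale, was the highest of the members. Its log2 fold change from 4 h to 168 h was 7.52 (standard error 2.74, edgeR adjusted p = 0.0249), a call lost without any 1 of the 4 h replicates and with limma-voom. At 48 h it was 10.04 (edgeR, adjusted p = 0.0445) with all libraries and -4.45 without 48h replicate 2, a call lost with 13 of the 24 libraries left out singly. The time means of CPM were 23.6 times as high in the 96 h group as in the higher of the 4 h and 168 h groups.

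Gene 29 was low for 2 days. Its CPM were 28.7, 32.9 and 20.6 after 4 h, 33.2, 19.4 and 18.7 after 24 h, 24.7, 8.83 and 25.9 after 32 h, and 19.4, 186 and 28.2 after 48 h. They were 542, 149 and 185 after 72 h, 4196, 4126 and 6079.9 after 96 h, 280.4, 7088 and 7422 after 120 h, and 2514, 3246 and 2748 after 168 h. From 72 h all libraries were above those of 4 h. It rose by 3.58 between 72 h and 96 h (edgeR, adjusted p = 0.0128), and the log2 fold change from 4 h to 168 h was 6.20 (standard error 0.940, edgeR adjusted p = 3.83e-05).

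Genes 16 and 36 were present from the start and rose at the same step. Gene 16 was at 736, 774 and 835 CPM after 72 h, 5622, 5360.5 and 7638 after 96 h, and 629.6, 8515 and 9959 after 120 h. Gene 36 was at 652, 248 and 309 CPM after 72 h, 4692, 4767 and 6865 after 96 h, and 319, 7312 and 7966 after 120 h. In both genes the 72 h and 96 h libraries were well apart. From 72 h to 96 h gene 16 rose by 2.48 (edgeR, adjusted p = 0.0140) and gene 36 by 3.28 (edgeR, adjusted p = 0.00656). Without 72h replicate 2 the calls of genes 16, 29 and 36 were lost, at 2.42, 3.26 and 3.01. That of gene 16 was also lost without 72h replicate 1 (2.37) or 96h replicate 3 (2.33), and that of gene 29 without 72h replicate 3 (3.43) or 96h replicate 3 (3.37).

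Gene 53 came last, with its highest mean in the 168 h libraries. Its CPM were 454, 155 and 114 after 4 h, 396, 362 and 167 after 24 h, 333, 514 and 266 after 32 h, and 309, 149.6 and 567 after 48 h. They were 97.5, 62.8 and 185 after 72 h, 639, 585 and 934 after 96 h, 103, 1295 and 1481 after 120 h, and 1964, 2843 and 2441 after 168 h. The 168 h libraries lay above all others. It was up by 2.80 at 168 h against 4 h (standard error 0.709, edgeR adjusted p = 0.00309) and by 3.24 against 72 h (edgeR, adjusted p = 0.00225). These values were 3.70 without 4h replicate 1 and 3.95 without 72h replicate 3, both called. By the median normalised level gene 53 ranked 105, outside the first 60, so its high late libraries helped to bring it among the members. The calls of its late rise are therefore also descriptions and no independent support.

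Genes 26, 28 and 54 dipped and returned. Gene 26 was at 2417, 1685 and 2352 CPM after 4 h, 354, 324 and 275 after 72 h, and 2029, 2256 and 1963 after 168 h. The 72 h libraries lay below both ends, which overlapped. Gene 28 was at 2154, 1125 and 1080.0 CPM after 4 h, 188, 191 and 259 after 72 h, and 1524, 1786 and 1672 after 168 h, and gene 54 at 2044, 1481 and 1347, at 247, 261 and 343, and at 1582, 1618 and 1752 CPM. At 72 h against 4 h they fell by 2.20, 2.18 and 1.91 (edgeR, adjusted p = 0.000231, 0.00426 and 0.00519). At 168 h against 72 h they rose by 1.65, 1.86 and 1.44 (edgeR, adjusted p = 0.000714, 0.00382 and 0.00956), a contrast that shares the 72 h libraries with the first. In 120h replicate 1 their CPM were 301, 232 and 224, within or near the 72 h range, while the other 120 h libraries held 546 to 1421.

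The members with the smallest span of time means were genes 59, 1, 38, 51 and 60, from 2.35-fold to 4.54-fold between the highest and the lowest mean of CPM. Gene 59 was at 584, 413 and 466 CPM after 4 h, 936, 865 and 577 after 24 h, 289, 409.8 and 312 after 72 h, and 393, 423 and 395 after 168 h. Its 4 h and 24 h libraries overlapped, and its log2 fold change from 4 h to 168 h was -0.78 (standard error 0.262, edgeR adjusted p = 0.0180). That call was lost without 4h replicate 1 (-0.59), 168h replicate 2 (-0.75) or 168h replicate 3 (-0.76). It was also lost with DESeq2 size factors in edgeR (-0.56), a filter of 1 CPM (-0.68), limma-trend on the normalised values (-0.36) or the main isoform alone (-0.53).

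Gene 38 was at 1196, 1291 and 1157 CPM after 4 h, 459, 442 and 460.5 after 72 h, and 1633, 1569.7 and 1569 after 168 h. Gene 60 was at 808, 558 and 517 CPM after 4 h, 206, 231 and 248 after 72 h, and 952, 1100.5 and 1063 after 168 h. In each of these genes the 72 h libraries were the lowest of the 3 times and the 168 h libraries the highest. After TMM scaling neither was called at 168 h against 4 h, with log2 fold changes of -0.10 (standard error 0.282) and 0.22 (standard error 0.310). The sign of the former turned with DESeq2 size factors (0.12), and a value that misses the threshold does not show equal levels.

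Gene 51 had a short early rise. Its CPM were 493, 465 and 447 after 4 h, 1062, 1009.7 and 747 after 24 h, 962, 964 and 939 after 32 h, and 873, 635 and 1058 after 48 h. They were 358, 490.1 and 327 after 72 h and 224, 221 and 204 after 168 h. The libraries of 24 h to 48 h were all above those of 4 h, and those of 168 h all below. It was up by 1.47 after 32 h (edgeR, adjusted p = 0.0128) and down by 1.61 after 168 h (edgeR, adjusted p = 0.000457). The 32 h call was lost without 4h replicate 2 (1.14) or 4h replicate 3 (1.46).

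Isoform makeup differed between members. Of the 60, 21 had 1 assembled isoform and 39 had 2 or more, up to 10, with 183 isoforms in all. In 33 of the 39 the main isoform, the one with the highest mean normalised level, was also the highest at all 8 times. In 29 it held at least 50% of the gene's normalised level in every library. For gene 1, with 8 isoforms, the main one held 71.2% to 93.3% of the gene's normalised level, and for gene 2, with 2 isoforms, 100%.

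The main isoform of the late genes 24 and 45 held a larger mean share at each later time from 72 h. For gene 24 it held 50.7% ± 6.47 of the normalised level after 72 h, 65.1% ± 1.21 after 96 h, 68.7% ± 5.28 after 120 h and 86.0% ± 0.312 after 168 h (± SD, n = 3 per time). For gene 45 it held 25.7% ± 9.75, 41.5% ± 0.777, 50.7% ± 0.610 and 77.9% ± 1.76 at the same times (± SD, n = 3 per time). In both genes the 168 h share exceeded that of 72 h by several SD. Of the falling genes, gene 31 had a main isoform at 69.2% ± 0.419 after 4 h, 40.4% ± 6.12 after 72 h and 39.7% ± 3.73 after 168 h (± SD, n = 3 per time), and for gene 20 these shares were 95.7% ± 0.264, 68.8% ± 8.40 and 79.3% ± 11.5. These shares were not tested, and assembled isoforms of a gene can differ by little sequence, which makes the split of reads between them uncertain.

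Genes 25 and 41 share an assembly component in the same way as genes 3 and 5. Per length, gene 25 stood at 1.03 to 1.76 times gene 41 in the 24 libraries, with a median of 1.41. In all, 20 of the 60 members share a component with some other assembled gene, so that reads could be split between near copies, and their sequences were not used here.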

How the data were processed

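The authors deposited estimated counts per assembled transcript, RSEM expected counts by the table's name, and a second deposited table named as TMM-scaled, used here as normalised signal. Tools in the submitters' processing notes are limma 3.54.2, edgeR 3.40.2, R 4.2.2, RSEM, FastQC 0.11.2 and Trimmomatic 0.32, and the aligner is not given in the sources used here. No unit is stated for the normalised table: for 1149 transcripts with more than 50 counts in every library, counts over deposited normalised signal split into a transcript and a library factor (SD of the log2 residual at most 0.0128), so its values were read as counts per length.

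Members were ranked on that table summed per gene. The members and all lists were chosen with earlier results of these data known. For tests, expected counts were summed per gene and rounded, filtered with filterByExpr (15587 genes, all 60 members among them) and fitted jointly over the 24 libraries by glmQLFit and glmQLFTest of edgeR 4.0.16 after TMM (R 4.3.3), with contrasts of each time against 4 h, of 168 h against 72 h, of 6 later steps, and over all times. Standard errors were back-calculated from the unshrunk coefficient and F. The script was tested on simulated data. Chi-square per degree of freedom between replicates of the same time was at least 8.16, so no library was a copy of another of its time. Libraries of different times were not compared in this way. All per-sample columns were mapped by name.

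Genes described singly were ranks 1 to 10, the 5 largest rises and falls at 168 h against 4 h, and the 5 most transient and 5 least variable members. Genes 16, 26, 28, 36 and 54 were added after their values were seen, as were the genes in the isoform account. IDs are printed for 2 genes that rose and 2 that fell. Alternatives used DESeq2 1.42.0, limma 3.58.1, other filters and scalings, single libraries left out, and 72h replicate 3 with 120h replicate 1 left out, the last chosen after seeing the data.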

Additional observations from a re-analysis of the deposited data

How the results depend on the processing

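The counts of members called over all times (59), at 96 h against 4 h (51), at 168 h against 4 h (54) and at 168 h against 72 h (55) stayed within 1.5 times under all alternatives run, and that at 120 h (49) under all except the fit to only the libraries compared (16). Earlier counts moved, and the cause was not tested. No share of all tested genes stands beside the counts under alternatives, so they describe the members alone. At 24 h, where 1 was called, the count was 0 at an adjusted p under 0.01, 2 with no filter, with a filter of 1 CPM or with the replicate block, 6 with only the libraries compared or limma-voom, 7 without 72h replicate 3 and 120h replicate 1, 9 with DESeq2, and 0 to 8 with 1 library left out. At 32 h (8), these were 3 at 0.01, 22 with only the libraries compared, 13 without both libraries or with DESeq2, 5 for the main isoform alone and 2 to 13 with 1 library left out. At 48 h (12), they were 6 at 0.01, 3 with only the libraries compared, 22 without both libraries, 21 with DESeq2, 7 for the main isoform alone and 6 to 21 with 1 library left out. At 72 h (27), they were 12 at 0.01 and 13 to 39 with 1 left out. Over the 6 later steps (52), they were 11 at 0.01, 34 with no filter, 31 without both libraries, 5 for the main isoform and 8 to 66 with 1 left out.

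As a share of normalised values in place of counts, the 60 genes held 44.8%, 74.6% and 34.3% after 4, 72 and 168 h. Of the counts outside genes 1 and 2, genes 3 to 60 held 21.5%, 20.5% and 4.92% at the same times. For the 21 genes in the naming rule, the 36 alternatives gave 756 log2 fold changes at 168 h against 4 h. Of these, 727 kept direction and call, 22 lost the call and 7 turned. Gene 1 was 0.0234 with DESeq2 and its size factors and 0.108 with limma-trend, and gene 38 was 0.116, 0.289 and, for the main isoform, 0.192. Contrasts at other times are not in this count. In 24 of the 36 alternatives 1 library was left out, mostly from a time outside this contrast, which tests the value little. Called members turned direction in 1 setting, genes 24 and 45 at 48 h without 48h replicate 2. Replicate numbers did not pair the libraries: over 84 same-number pairs the correlation of deviations ran from -0.565 to 0.526, 25 were over 0.1, and 8 of 24 libraries correlated best with their own number. The replicate block moved the 24 h count to 2 and ended the call of gene 4 at 168 h (2.06). Counts of 8 to 10 in a 4 h group, as for genes 24 and 45, limit the size of their folds.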
